A study of Homo sapiens with 16 samples.

Results

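MitoQ changed gene expression differently in MDA-MB-231 and SKBR3 cells, and the difference was measured gene by gene as a line by treatment interaction over all 16 libraries. The interaction of a gene is its log2 fold change with MitoQ in SKBR3 minus that in MDA-MB-231, so a positive value means that the gene went further up, or less far down, in SKBR3. The genes described averaged 1 CPM or more in each line (CPM is a gene's count scaled to the library size, here to plain totals), so that the effect can be measured on both sides. Of 35106 gene rows 12247 met this rule, 11814 of them protein-coding, and all 12247 were among the 17094 rows tested. A further 1427 genes reached that level in MDA-MB-231 alone and 1287 in SKBR3 alone and were left out.

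Both lines are long-established human breast adenocarcinoma lines from pleural effusions. MDA-MB-231 is triple-negative with mesenchymal traits, and SKBR3 carries an amplified ERBB2 (HER2) gene. The 4 groups were MDA-MB-231 control (5 libraries) and MDA-MB-231 with 500 nM MitoQ for 48 h (5 libraries), both at passage 25, and SKBR3 control (3 libraries) and SKBR3 with 500 nM MitoQ for 48 h (3 libraries), both at passage 10. Passage and line cannot be told apart. The labels do not name a vehicle for the controls, and nothing says that the replicates came from separate cultures, so the p-values measure the spread between these libraries. The study searched for markers of the response to MitoQ, and the interaction asks which part of the response depends on the line.

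MitoQ is a ubiquinone tied to a lipophilic cation, which draws it into mitochondria, where it enters the inner membrane near the respiratory chain. A cell whose mitochondria are disturbed can raise the integrated stress response, in which phosphorylation of eIF2 alpha slows translation while the transcription factor ATF4 is made and switches on genes for amino acid synthesis, uptake and charging of tRNA. Dividing cells need copies of histones, mitotic proteins and membrane lipids, so mRNAs of mitosis, histones and cholesterol synthesis follow proliferation and sterol supply in many tumour lines.

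The totals per library were 14723152 to 29294865 estimated counts, and a count of 0 allowed a level of 0.102 to 0.204 CPM (3 counts, counting error only). The markers of the lines fitted the labels: in plain CPM, ERBB2 lay between 4918 and 5824 in SKBR3 control libraries and between 49.4 and 56.6 in those of MDA-MB-231, and VIM, at 3260 CPM or more in each MDA-MB-231 control, did not pass 0.433 CPM in a SKBR3 library. Of 12 leukocyte markers 10 lay below 1 CPM in every group. SKBR3 control 3 stood apart from the other SKBR3 controls on the first principal component of its line (-6.15 against -16.1 and -15.0, with MitoQ libraries at 9.98 to 14.5), and MDA-MB-231 MitoQ 2 differed most from its group. In bulk RNA a lower level in each cell and a smaller number of cells of a kind cannot be told apart.

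The response was larger in MDA-MB-231. At an adjusted p under 0.05 (edgeR quasi-likelihood test, Benjamini-Hochberg over all 17094 rows) 5387 of the 12247 genes, 44%, had an interaction, against 34.1% of all 17094 rows. Of the 12247 genes 3057 (25%) had a positive and 2330 (19%) a negative one. By line, 7767 genes (63.4%) were called in MDA-MB-231 and 2587 (21.1%) in SKBR3. A change of at least 2-fold was called for 377 rises and 220 falls in MDA-MB-231, against 66 rises and 2 falls in SKBR3. The median size of the effect was 0.240 in MDA-MB-231 and 0.137 in SKBR3 on the log2 scale (median SE 0.062 and 0.083), and the size was larger in MDA-MB-231 for 66.5% of the genes. The interaction reached 2-fold for 342 positive and 292 negative genes, and 4-fold for 30 and 45. The number of calls in SKBR3 rests on few libraries: it was 1467 without control 1, 1711 without control 2 and 1557 without MitoQ 2, but 3262 without MDA-MB-231 MitoQ 2 and 4196 with limma voom. Leaving out SKBR3 control 3 gave 5087 interaction calls, and leaving out MDA-MB-231 MitoQ 2 gave 5741. When libraries were scaled by their plain totals, 41.7% of the interaction calls were positive against 56.7%, and 58.9% of the MDA-MB-231 calls were rises against 46.7%, so the balance of small positive and negative interactions depends on the scaling.

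Most of the difference was a response of MDA-MB-231 without a called one in SKBR3. A missing call in SKBR3, with fewer libraries, does not show that a gene did not respond there. Of the 5387 genes 3676 (68.2%) were called in MDA-MB-231 alone, 459 (8.52%) in SKBR3 alone and 223 (4.14%) in neither line. Another 385 (7.15%) moved in 1 direction in both lines and further in MDA-MB-231, and 61 (1.13%) moved further in SKBR3. Opposite called effects were found for 583 genes (10.8%), of which 424 rose in SKBR3 and fell in MDA-MB-231 and 159 did the reverse. Without SKBR3 control 1, control 2, MitoQ 2 or MitoQ 3 the class up in SKBR3 held 238, 256, 244 or 247 genes, that larger in MDA-MB-231 held 203, 251, 208 or 247, and that called in SKBR3 alone held 269, 291, 292 or 296. The class up in MDA-MB-231 held 80, 96, 105, 85 or 73 genes without SKBR3 control 1, control 2, control 3, MitoQ 1 or MitoQ 2, and 252 with plain library totals.

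Across the genes the effects of the 2 lines, which share no library, had a Pearson r of 0.22 and a Spearman rho of 0.19 (12247 genes, which are not independent replicates), and 57.1% had the same sign. Of the 377 genes that rose at least 2-fold in MDA-MB-231, 131 (34.7%) also rose in SKBR3 and 3 (0.796%) fell, where 12.7% of all the genes rose and 8.44% fell in SKBR3. Of the 220 that fell at least 2-fold, 22 (10%) fell in SKBR3 and 20 (9.09%) rose. Their median effect in SKBR3 was 0.21 for the rises and 0.03 for the falls. Of the 66 genes that rose at least 2-fold in SKBR3, 41 (62.1%) rose and 11 (16.7%) fell in MDA-MB-231, where 29.6% of all the genes rose and 33.8% fell. The 2 genes that fell at least 2-fold in SKBR3 were ANGPTL4, which fell in both lines, and the collagen gene COL5A2, which rose in MDA-MB-231.

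**Figure D1:**
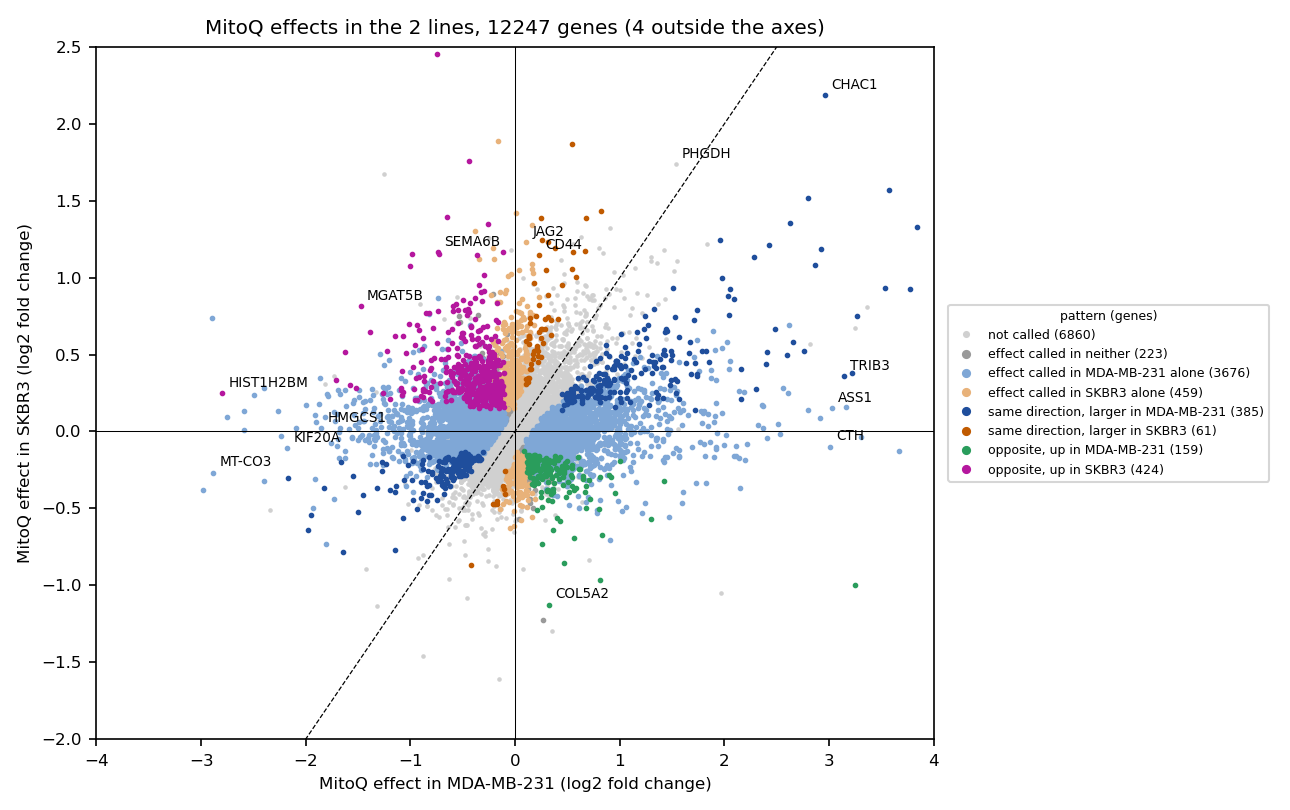
Each point is 1 of the 12247 genes, with its log2 fold change with MitoQ in MDA-MB-231 on the horizontal and in SKBR3 on the vertical axis, coloured by the class of its interaction; the dashed line marks equal effects and 4 genes lie outside the axes. The cloud is wide along the horizontal axis and narrow along the vertical one, and the called genes on the axis are those that moved in MDA-MB-231 alone.

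The integrated stress response differed in size. Of 16 factors and regulators of this response 15 had a negative interaction and none a positive one, with a median of -1.07 (0.031 over all 12247 genes), and the remaining gene, ATF5, had an interaction of 0.23 that did not pass (adjusted p = 0.094, but 0.0216 without SKBR3 control 1 and 0.0349 without MDA-MB-231 MitoQ 5). In MDA-MB-231 15 of 16 rose and ATF5 fell, with a list median of 1.49. In SKBR3 12 of 16 rose and none fell, with a median of 0.45. The mRNA of ATF4, the central factor, went from 260 to 456 CPM in MDA-MB-231 (means of 5) and from 199 to 219 CPM in SKBR3 (means of 3), where it did not pass the test (log2 0.14, adjusted p = 0.157).

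TRIB3, a pseudokinase induced by ATF4, had the largest gap in this list. Its normalised CPM was 25.5, 22.1, 23.1, 20.4 and 20.4 in the MDA-MB-231 controls and 173, 210, 176, 206 and 220 with MitoQ. In SKBR3 it was 222, 239 and 276 in the controls and 302, 313 and 333 with MitoQ. Each line's groups were apart. In normalised CPM the SKBR3 controls lay above the treated MDA-MB-231 libraries, but the nearest pair (222 and 220) was too close for that order to hold under any scaling. TRIB3 rose 8.84-fold in MDA-MB-231 and 1.29-fold in SKBR3, an interaction of -2.78 ± 0.13 (SE, adjusted p = 4.71e-12).

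NUPR1, a stress-induced chromatin protein, was at 6.11 to 7.21 CPM in MDA-MB-231 controls (median 6.48) and 54.2 to 71.2 with MitoQ (median 64.5). In SKBR3 it was 23.2, 21.0 and 20.4 in controls and 34.5, 38.4 and 35.4 with MitoQ. The rise was 9.63-fold against 1.68-fold (interaction -2.52 ± 0.12, adjusted p = 3.85e-14). CHAC1, which degrades glutathione, was the list's gene with the largest rise in SKBR3. It went from 5.58 to 6.16 CPM in MDA-MB-231 controls to 40.4 to 52.7, and in SKBR3 from 1.52, 2.33 and 1.67 to 6.12, 9.07 and 9.27. The rises of 7.78-fold and 4.55-fold differed by -0.77 ± 0.22 (adjusted p = 0.00769), but without SKBR3 control 2 the interaction of -0.61 no longer passed (adjusted p = 0.0615). The secreted stress hormone GDF15 (log2 3.84 in MDA-MB-231 and 1.33 in SKBR3, the order of all pairs of log2 fold changes unless another is given) and the peptide ADM2 (2.80 and 1.52) rose in both lines and further in MDA-MB-231.

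Genes of amino acid supply split into those shared by the lines and those of MDA-MB-231. Of 19 enzymes of amino acid synthesis and folate one-carbon metabolism 12 had a negative and 4 a positive interaction, with a median of -0.51. In MDA-MB-231 13 rose and 5 fell, and in SKBR3 8 rose. ASNS makes asparagine from aspartate. It was at 62.2, 58.2, 62.7, 56.9 and 55.2 CPM in MDA-MB-231 controls and 436, 458, 453, 448 and 437 with MitoQ, and at 43.5, 40.6 and 40.8 in SKBR3 controls and 88.5, 95.5 and 99.6 with MitoQ. The groups did not overlap in either line, and the rise was 7.56-fold against 2.27-fold (interaction -1.74 ± 0.07, adjusted p = 7.93e-15). Of the 31-base stretches of ASNS 42.5% also occur in transcripts of other genes.

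PHGDH, the first enzyme of serine synthesis, rose in both lines. Its level went from 51.3, 50.7, 50.5, 47.1 and 46.0 CPM to 139, 131, 148, 147 and 147 in MDA-MB-231. In SKBR3 it went from 17.1, 16.8 and 20.5 to 58.0, 64.4 and 60.6. The rises of 2.90-fold and 3.34-fold gave an interaction of 0.20 ± 0.09 with a 95% interval of 0.01 to 0.39 (adjusted p = 0.0957), which passed with limma voom (adjusted p = 0.0303) and without SKBR3 control 3 (adjusted p = 0.00983). PSAT1, the next enzyme of that pathway, rose further in MDA-MB-231 (log2 2.06 and 0.93), as did SHMT2 (1.31 and 0.50) of the folate cycle and PYCR1 (0.97 and 0.46) of proline synthesis.

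CTH and ASS1 rose in MDA-MB-231 and did not pass the test in SKBR3. CTH makes cysteine from cystathionine. It went from 11.4, 12.2, 12.9, 14.3 and 11.5 CPM to 94.8, 109, 98.0, 97.1 and 103 in MDA-MB-231, and lay at 7.31, 8.39 and 8.80 CPM in SKBR3 controls and 7.09, 8.02 and 7.87 with MitoQ, where the groups overlapped. Its interaction was -3.10 ± 0.12 (adjusted p = 4.71e-15). ASS1, which makes argininosuccinate for arginine synthesis, went from 13.2 to 15.9 CPM to 100 to 136 in MDA-MB-231, while SKBR3 held 253 to 272 CPM without and 285 to 299 CPM with MitoQ (log2 0.15 ± 0.08, adjusted p = 0.21). MTHFD2, the mitochondrial folate enzyme, rose by 1.72 in MDA-MB-231 and by 0.14 ± 0.05 in SKBR3 (adjusted p = 0.0399) on the log2 scale.

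Of 9 amino acid transporters 8 had a negative interaction, with a median of -0.91. SLC1A4 (log2 2.66 in MDA-MB-231 and 0.58 in SKBR3), the cystine importer SLC7A11 (1.95 and 1.24), SLC7A5 (1.39 and 0.47) and its partner SLC3A2 (1.28 and 0.46) rose in both lines. The interaction of SLC7A11, -0.71, did not pass without SKBR3 control 3 (-0.65, adjusted p = 0.059). SLC38A1 rose in MDA-MB-231 (0.99), with -0.09 in SKBR3. The exception was the arginine importer SLC7A1, which rose in both lines (0.47 and 0.45, interaction -0.02 with a 95% interval of -0.19 to 0.14). Of 20 cytosolic aminoacyl-tRNA synthetases 12 had a negative and 3 a positive interaction (median -0.68). WARS rose in MDA-MB-231 (1.81, with 0.13 in SKBR3), as did LARS (0.85, with -0.12).

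The sequence upstream of ASNS and CHAC1 is shown because these ATF4 targets rose in both lines. Both are the 250 bases before the RefSeq start on GRCh38.p14, read 5′ to 3′ on the gene's strand: chr7:97872409-97872658 on the minus strand and chr15:40953221-40953470 on the plus strand. Capitals mark the C/EBP-ATF response element, searched as TGATGNAAN on both strands.
ASNS: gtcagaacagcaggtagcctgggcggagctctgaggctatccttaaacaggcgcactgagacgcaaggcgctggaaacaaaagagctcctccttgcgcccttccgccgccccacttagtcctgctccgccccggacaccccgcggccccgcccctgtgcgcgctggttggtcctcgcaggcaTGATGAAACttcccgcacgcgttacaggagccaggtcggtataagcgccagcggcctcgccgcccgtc
CHAC1: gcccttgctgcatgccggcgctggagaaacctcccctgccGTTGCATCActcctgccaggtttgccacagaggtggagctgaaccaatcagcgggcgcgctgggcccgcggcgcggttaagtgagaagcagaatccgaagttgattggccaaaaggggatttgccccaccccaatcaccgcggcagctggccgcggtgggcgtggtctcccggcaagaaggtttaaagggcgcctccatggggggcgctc
Each has 1 match. This element was found in 2 of 14 promoters of the stress response list and 3 of 12 of the amino acid enzymes. It was found in 2.46% of the 203 genes with a matched promoter that rose in MDA-MB-231 with an interaction of -1 or less. Of the ribosomal protein genes 2 of 41 (4.88%) had it. The share was 1.33% of the 9676 promoters matched to the 12247 genes and 3.18% of all 27305 promoters of that length. A match is a description and no test of binding.

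Genes of mitosis fell in MDA-MB-231, and few of them passed the test in SKBR3. All 29 measured genes of the list had a positive interaction, with a median of 1.02 and a range of 0.52 to 2.07. In MDA-MB-231 29 of 29 fell, with a median of -1.01. In SKBR3 2 rose and 2 fell, and the median was -0.01. KIF20A, a kinesin of cytokinesis, was at 157, 165, 163, 150 and 158 CPM in control MDA-MB-231 libraries and 34.8, 33.5, 33.4, 37.6 and 36.1 with MitoQ. In SKBR3 it was at 68.1, 61.0 and 62.5 in controls and 59.8, 58.2 and 59.8 with MitoQ. The SKBR3 groups were apart by a small margin and the change there did not pass (log2 -0.11 ± 0.06, adjusted p = 0.227). The interaction was 2.07 ± 0.07 (adjusted p = 9.55e-16). The mitotic kinases AURKA (log2 -1.75 and -0.07) and PLK1 (-1.70 and 0.11) and the proliferation antigen MKI67 (-1.11 and 0.02) had the same pattern. Cyclin B1 (CCNB1) fell in both lines, by 1.67 in MDA-MB-231 and by 0.20 in SKBR3 on the log2 scale.

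The replication genes under E2F moved less. Of 30, 17 had a positive and 1 a negative interaction, with a median of 0.22. The share called was 60%, against 44% of all the genes. With plain library totals fewer were called, 11 positive and 3 negative. GINS4, a subunit of the replicative helicase, fell in MDA-MB-231 (-1.19) and rose in SKBR3 (0.21), and MCM5 did the same (-0.41 and 0.24).

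Clustered core histone genes, which are transcribed in S phase and lack a poly(A) tail, gave the largest positive interactions. All 18 measured genes had one, with a median of 1.76. In MDA-MB-231 18 of 18 fell, with a median of -1.59, and in SKBR3 3 rose and none fell, with a median of 0.14. HIST1H2BM was at 73.1, 76.9, 75.4, 74.7 and 78.3 CPM in control MDA-MB-231 libraries and 8.47, 11.9, 11.4, 11.6 and 11.2 with MitoQ. SKBR3 held 70.7, 58.6 and 64.3 CPM in controls and 71.2, 79.6 and 79.8 with MitoQ. The MDA-MB-231 groups were far apart, and the SKBR3 groups were apart by a small margin. HIST1H2BM fell 6.95-fold in MDA-MB-231 and rose 1.19-fold in SKBR3 (adjusted p = 0.0326), an interaction of 3.05 ± 0.11 (adjusted p = 9.55e-16), the highest among coding genes that averaged 5 CPM or more in each line. HIST1H3J (2.84), HIST1H2BB (2.73), HIST2H3D (2.68), HIST1H2AB (2.61) and HIST1H2AJ (2.21) followed. Of the 31-base stretches of HIST2H3D 86.4%, of HIST1H2AJ 86% and of HIST1H3J 42.4% also occur in other transcripts, so their counts are less certain.

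PIF1, a DNA helicase, fell with these genes from 22.4 to 27.2 CPM to 3.72 to 4.59 in MDA-MB-231, and lay at 9.38 to 10.2 CPM in SKBR3 controls and 10.6 to 11 with MitoQ (interaction 2.72 ± 0.13, adjusted p = 4.33e-14). The upstream sequences of KIF20A, PIF1 and HIST1H2BM are shown because their mRNAs fell together in MDA-MB-231 alone or with a small rise in SKBR3. They are the 250 bases before the RefSeq start on GRCh38.p14, 5′ to 3′ on the gene's strand: chr5:138178862-138179111 (plus), chr15:64825648-64825897 (minus) and chr6:27814772-27815021 (plus, listed by RefSeq as H2BC14). Capitals mark CCAAT and its reverse complement, and TTTGAA and its reverse complement, a form of the cell cycle homology region, each searched on its own so that a stretch could count for both.
KIF20A: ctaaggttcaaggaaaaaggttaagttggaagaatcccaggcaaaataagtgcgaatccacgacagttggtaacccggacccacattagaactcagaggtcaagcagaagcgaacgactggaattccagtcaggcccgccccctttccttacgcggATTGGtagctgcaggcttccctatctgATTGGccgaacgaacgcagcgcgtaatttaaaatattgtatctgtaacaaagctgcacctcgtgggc
PIF1: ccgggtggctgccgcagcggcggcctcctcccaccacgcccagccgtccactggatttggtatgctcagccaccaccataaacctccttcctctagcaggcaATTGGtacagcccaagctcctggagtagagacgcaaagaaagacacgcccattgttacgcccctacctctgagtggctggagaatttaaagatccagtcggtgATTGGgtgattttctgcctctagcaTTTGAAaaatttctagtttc
HIST1H2BM: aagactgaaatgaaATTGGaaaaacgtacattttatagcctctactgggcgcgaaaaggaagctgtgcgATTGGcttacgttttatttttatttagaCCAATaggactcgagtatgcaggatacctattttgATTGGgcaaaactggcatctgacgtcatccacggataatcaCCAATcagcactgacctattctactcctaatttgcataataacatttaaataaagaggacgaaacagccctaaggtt
KIF20A and PIF1 have 2 CCAAT matches each and HIST1H2BM has 5, and PIF1 has 1 TTTGAA match. The CCAAT box was found in 19 of 24 promoters of the mitosis list (79.2%), 15 of 17 of the histones (88.2%) and 15 of 18 of the cholesterol list (83.3%). Among lists that rose in MDA-MB-231 it was found in 8 of 12 promoters of amino acid enzymes (66.7%) and 6 of 14 of the stress response list (42.9%). Among genes with a matched promoter, it was found in 51.5% of the 237 that fell in MDA-MB-231 with an interaction of at least 1. The share was 31.5% of the 203 that rose there with an interaction of -1 or less. It was 35.6% of the 9676 matched promoters and 33% of all promoters. TTTGAA was found in 11 of 24 mitosis promoters (45.8%), 5 of 17 histone promoters (29.4%) and 1 of 18 of the cholesterol list (5.56%). Its shares were 20.7% of those 237 and 8.87% of those 203, against 8.39% of the 9676 matched promoters and 13.6% of all promoters. These shares describe the letters of the window and were not tested.

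Genes of cholesterol synthesis and sterol regulation had the third pattern of this kind. Of 24 genes 22 had a positive interaction (median 1.32), 22 fell in MDA-MB-231 (median -1.27), and in SKBR3 2 rose and none fell (median 0.02). HMGCS1, which makes HMG-CoA, was at 203, 203, 209, 217 and 202 CPM in control MDA-MB-231 libraries and 75.1, 33.1, 70.4, 58.0 and 49.3 with MitoQ. SKBR3 held 96.5, 87.8 and 89.1 CPM in controls and 92.5, 89.9 and 95.4 with MitoQ, which overlapped. The interaction was 1.88 ± 0.26 (adjusted p = 1.02e-04). Mevalonate kinase, MVK, fell in MDA-MB-231 (log2 -1.68, with -0.17 in SKBR3), and SQLE (-1.36, with 0.02) and CYP51A1 (-1.32, with -0.01) fell there too. Of the 31-base stretches of CYP51A1 80% also occur in transcripts of other genes. FDPS fell in MDA-MB-231 (-1.08) and rose in SKBR3 (0.23). Phosphomevalonate kinase, PMVK, was among the 2 genes without a called interaction (0.01 and 0.07). Fatty acid genes followed less evenly, with 10 positive and 1 negative of 15 (median 0.36). SCD, a desaturase, had an interaction of 1.05 ± 0.36 at an adjusted p of 0.0413. It did not pass without any 1 of MDA-MB-231 control 1, 2, 3 or 4, MDA-MB-231 MitoQ 5 or the SKBR3 libraries (adjusted p 0.0537 to 0.0812). FASN, fatty acid synthase, had 0.82 ± 0.21.

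**Figure D2:**
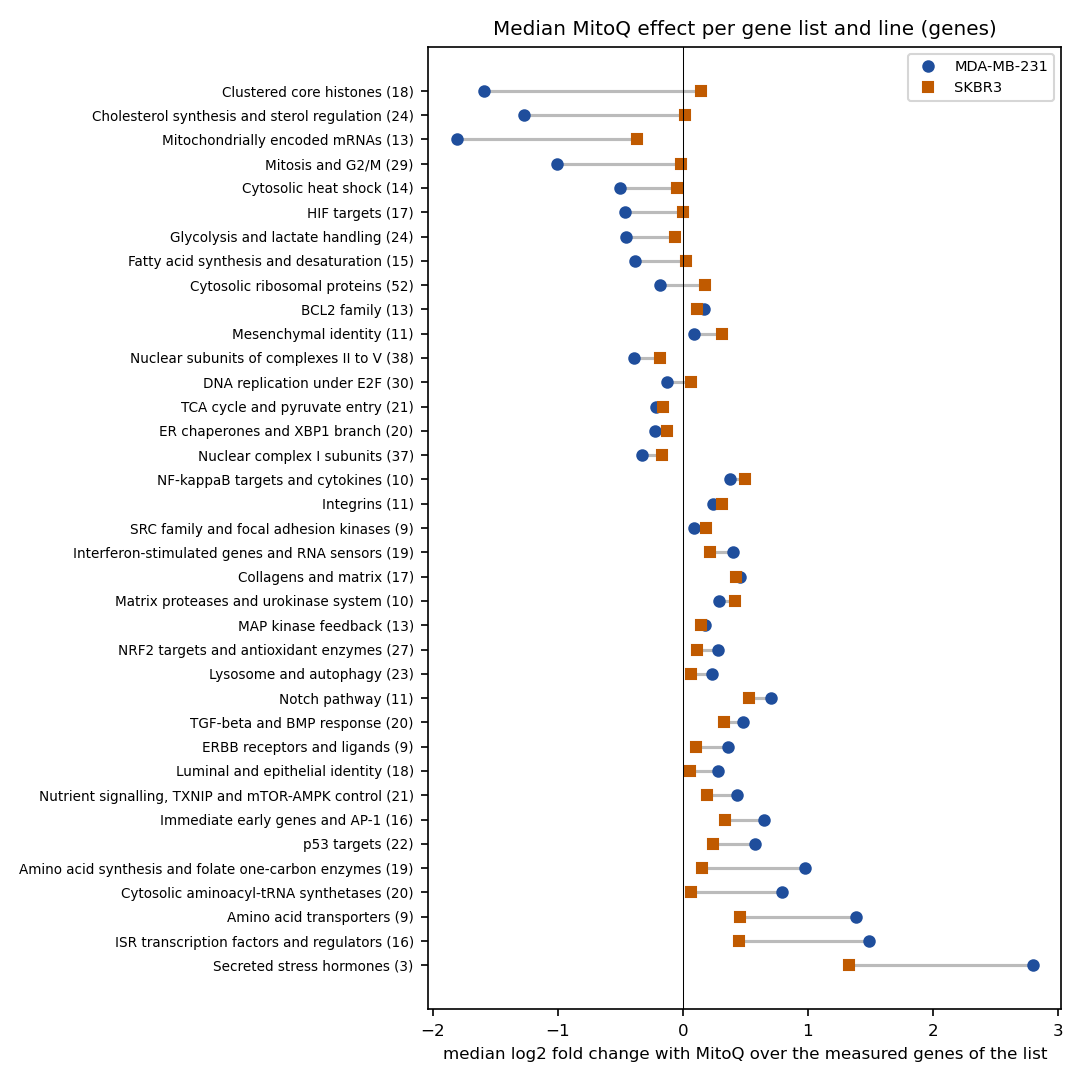
Median log2 fold change with MitoQ over the measured genes of each list, in MDA-MB-231 (circles) and SKBR3 (squares), with the number of genes in brackets and lists in the order of their median interaction. Histones (-1.59 and 0.14) and mitosis (-1.01 and -0.01) sit far left in MDA-MB-231 and near 0 in SKBR3. So do genes of cholesterol synthesis and sterol regulation (-1.27 and 0.02). The stress response list is right of 0 in both (1.49 and 0.45).

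The mRNAs encoded in mitochondrial DNA, which are cut from long polycistronic transcripts, fell in MDA-MB-231, and fewer of them passed the test in SKBR3. Of 13, 10 had a positive interaction (median 1.29). In MDA-MB-231 12 fell (median -1.81), and in SKBR3 5 fell (median -0.37). Their share of all counts went from 3.10 to 3.68% in MDA-MB-231 controls to 0.891 to 1.24% with MitoQ, and from 5.67 to 7.08% to 5.15 to 5.26% in SKBR3. MT-CO3, a subunit of cytochrome c oxidase, was at 5024, 5262, 5727, 6076 and 5432 CPM in control MDA-MB-231 libraries and 768, 599, 737, 860 and 769 with MitoQ. In SKBR3 it was at 4853, 4190 and 3656 in controls and 3398, 3487 and 3661 with MitoQ, which overlapped by 1 library. The interaction was 2.61 ± 0.14 (adjusted p = 9.37e-11). MT-ND6, the only one of these mRNAs on the light strand, had an interaction of 2.60 ± 0.28. The members differed widely among themselves: MT-CO1 and MT-CO2 fell by 2.17 and 2.24 on the log2 scale in MDA-MB-231, while MT-ND1 fell by 0.42 and MT-ND2 had -0.21. The 3 without a called interaction were MT-ND1 (0.37), MT-ND2 (-0.01) and MT-ND3 (0.56). MT-CO1 shares 66.7%, MT-ND2 56.9%, MT-CO2 50.5%, MT-CO3 45%, MT-ND6 30.7% and MT-ND1 28.2% of its 31-base stretches with transcripts of other genes.

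**Figure D3:**
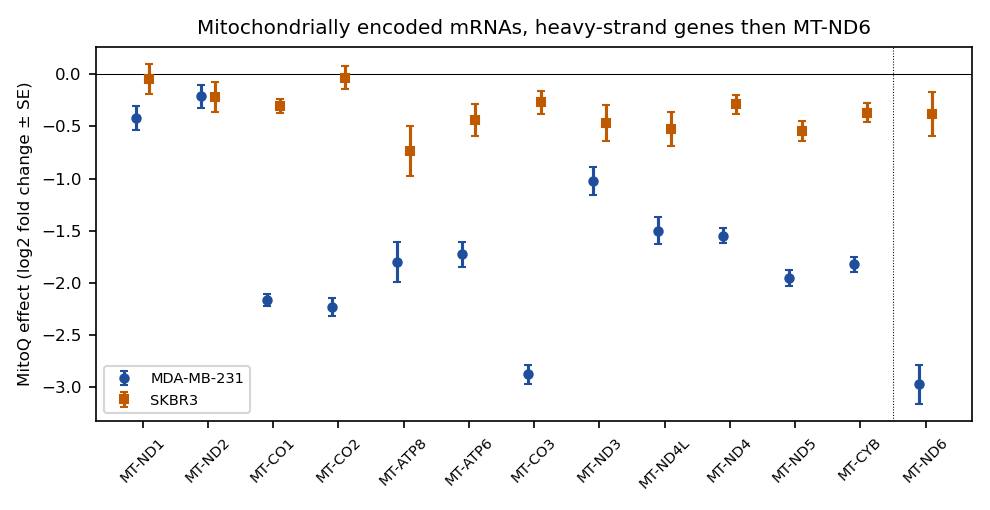
Log2 fold change with MitoQ ± SE of the 13 mitochondrially encoded mRNAs in MDA-MB-231 (circles, 5 and 5 libraries) and SKBR3 (squares, 3 and 3 libraries), heavy-strand genes in the order of the genome, then the light-strand gene MT-ND6. MT-CO3 (-2.88 and -0.27) and MT-ND6 (-2.98 and -0.38) show the widest gaps and MT-ND2 (-0.21 and -0.22) none.

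Of 37 nuclear subunits of complex I 26 fell and 2 rose in MDA-MB-231, and 12 fell in SKBR3. Of these 37, 8 had a positive and 1 a negative interaction, 24.3% against the 44% of all the genes. Their median effects were -0.32 and -0.17. NDUFB3 had -0.74 and -0.25. Of 38 subunits of complexes II to V 31 fell in MDA-MB-231 and 17 in SKBR3, and none rose. A positive interaction was called for 22 (median 0.23), 57.9% against the 44% of all the genes. With plain library totals 14 were positive and 2 negative. ATP5MC1, a rotor subunit of ATP synthase, fell in MDA-MB-231 (-1.11, with -0.19 in SKBR3).

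Most genes of sugar breakdown fell in MDA-MB-231. Of 24 genes of glycolysis and lactate handling 16 had a positive interaction (median 0.42). LDHA fell in both lines (-1.23 and -0.21), and PDK1, which blocks pyruvate entry, in MDA-MB-231 (-1.39, with -0.21). The 1 negative interaction was that of the lactate transporter SLC16A1, which was 1 of 2 genes that rose in MDA-MB-231. It went from 1.39, 0.700, 1.17, 1.51 and 0.937 CPM to 12.8, 18.5, 13.7, 13.5 and 14.0 in MDA-MB-231, and lay at 9.54, 9.52 and 8.80 CPM in SKBR3 controls and 7.72, 9.36 and 8.30 with MitoQ. With MitoQ the MDA-MB-231 level passed that of SKBR3. The interaction was -3.80 ± 0.21 (adjusted p = 1.60e-12). Of 17 HIF targets 10 had a positive and 3 a negative interaction (median 0.47). EGLN3 (-1.90, with 0.06) and BNIP3 (-1.06, with 0.14) fell in MDA-MB-231, while VEGFA rose in both (1.03 and 0.34).

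TXNIP, which restrains glucose uptake and is induced by the glucose sensor MondoA, rose in MDA-MB-231. It was at 88.8 to 95.0 CPM in the controls and 467 to 482 with MitoQ, and at 54.9, 63.9 and 53.6 CPM in SKBR3 controls and 54.0, 65.0 and 54.6 with MitoQ. The interaction was -2.35 ± 0.08 (adjusted p = 9.55e-16). Its relative ARRDC3 had -1.36. Of 21 genes of nutrient signalling 11 had a negative and 6 a positive interaction, or 12 and 3 with plain library totals.

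Cytosolic ribosomal protein genes showed small effects of unlike sign. Of 52, 38 had a positive and none a negative interaction (median 0.35). In MDA-MB-231 28 fell and 1 rose (median -0.19), and in SKBR3 17 rose and none fell (median 0.18). With plain library totals 30 had a positive interaction, 22 fell and 9 rose in MDA-MB-231, and 17 rose in SKBR3. RPS7, with -0.59 and 0.12, had an interaction of 0.72 ± 0.09. Cytosolic heat shock genes had 11 positive and no negative interactions of 14 (median 0.55), with HSPA8 (-0.84, with -0.07) and HSPH1 (-0.84, with -0.09) falling in MDA-MB-231. Genes of the unfolded protein response of the endoplasmic reticulum were split, 8 positive and 5 negative of 20 (65% called, against 44% of all the genes). In MDA-MB-231 12 fell and 5 rose (median -0.23), and in SKBR3 6 fell and 1 rose. XBP1 (1.35, with -0.06) and its activator ERN1 (2.16 and 0.21) were among the 5 that rose in MDA-MB-231.

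The antioxidant genes under NRF2 were mixed, with 11 negative and 6 positive interactions of 27, or 14 and 4 with plain library totals. The share called was 63%, against 44% of all the genes. NQO1 (1.49 and 0.53) rose in both lines and further in MDA-MB-231, and the ferritin light chain FTL (1.60, with 0.18) rose there, though 33.3% of its 31-base stretches are shared with other genes. HMOX1, heme oxygenase, rose in both lines (0.62 and 0.70, interaction 0.09 with a 95% interval of -0.33 to 0.51). SOD2, the superoxide dismutase of mitochondria, had -0.08 and -0.14 and passed in neither line, and the aldo-keto reductase AKR1B10 rose in SKBR3 (1.09, with 0.16 in MDA-MB-231). Of 22 p53 targets 11 had a negative and 2 a positive interaction, 59.1% called against 44% of all the genes. SESN2 is in this list and in the stress response list, so their counts are not independent. The lowest interaction of the p53 targets was that of GDF15 (-2.51). CDKN1A rose in both lines (1.71 and 0.73), as did the BCL2 family gene BBC3 (1.82 and 0.53).

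A group of genes ran in opposite directions. The 25 genes with opposite effects of at least 1.5-fold in both lines included 22 that rose in SKBR3. MGAT5B, a glycosyltransferase, was at 16.2, 13.4, 13.8, 15.1 and 16.9 CPM in MDA-MB-231 controls and 5.07, 4.71, 4.21, 6.18 and 6.88 with MitoQ, and at 7.26, 8.79 and 9.74 in SKBR3 controls and 15, 16.8 and 13.7 with MitoQ. The groups were apart in both lines and exchanged their order (interaction 2.29 ± 0.18, adjusted p = 9.12e-10). The small heat shock protein HSPB1 fell from 149, 139, 144, 117 and 127 CPM to 70.5, 63.0, 89.3, 87.9 and 95.5 in MDA-MB-231 and rose from 194, 168 and 199 to 292, 326 and 350 in SKBR3. Its interaction was 1.52 ± 0.18 (adjusted p = 1.23e-05). SEMA6B, a semaphorin (-0.74 and 1.16), the synaptotagmin family genes SYTL2 (-1.01 and 0.70) and SYT16 (-1.39 and 0.65), and DBNDD1 (-1.07 and 0.62) ran the same way.

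Others of this class belonged to listed groups. Transketolase TKT (-0.59 and 0.33), the metalloprotease ADAM9 (-0.40 and 0.17), caveolin CAV1 (-0.41 and 0.60), the lysyl oxidase LOXL2 (-0.37 and 0.60), the collagen COL13A1 (-0.26 and 1.35) and the BCL2 relative BOK (-0.27 and 0.69) fell in MDA-MB-231 and rose in SKBR3. CSF1R, the receptor for macrophage colony-stimulating factor, was at 2.07, 1.59, 1.77, 1.89 and 1.87 CPM in control MDA-MB-231 libraries and 1.37, 1.44, 1.42, 1.43 and 1.17 with MitoQ. In SKBR3 it was at 36.4, 37.9 and 41.2 CPM in controls and 63.6, 69.1 and 74.3 with MitoQ, a rise of 1.79-fold and an interaction of 1.26 ± 0.14 (adjusted p = 2.74e-07). Its ligand CSF1 rose in SKBR3 from 2.00, 1.86 and 1.85 to 4.05, 6.13 and 4.90 CPM and lay at 29.9 to 33.9 and 27.3 to 35.8 CPM in MDA-MB-231 (interaction 1.41 ± 0.18). The leukocyte markers besides CSF1R and CD68, 10 of 12, stayed below 1 CPM in each group, PTPRC at 0.453 CPM or less in every library, while the summed list, carried by these 2 genes, went from 43.1 to 48.5 to 74.1 to 84.0 CPM in SKBR3. CD68 rose there too (0.62, with -0.27 in MDA-MB-231, and 77.3% of its 31-base stretches shared with other genes).

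The reverse class was smaller in effect. PPM1L, a protein phosphatase, rose from 4.68, 6.07, 6.47, 5.81 and 6.88 to 10.9, 8.90, 12, 10.5 and 9.92 CPM in MDA-MB-231 and fell from 46.5, 45.5 and 41.5 to 33.8, 30.3 and 29.8 in SKBR3. The groups were apart in both lines (interaction -1.31 ± 0.13, adjusted p = 5.00e-08). PCLO (0.95 and -0.40), TMEM159 (0.67 and -0.40), the calcium channel ITPR1 (0.57 and -0.38), MAP9 (0.52 and -0.40) and carnitine acetyltransferase CRAT (0.49 and -0.42) followed. BTG1, an antiproliferative gene (1.0 and -0.20), and the receptor TGFBR1 (0.42 and -0.25) belonged here too.

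**Figure D4:**
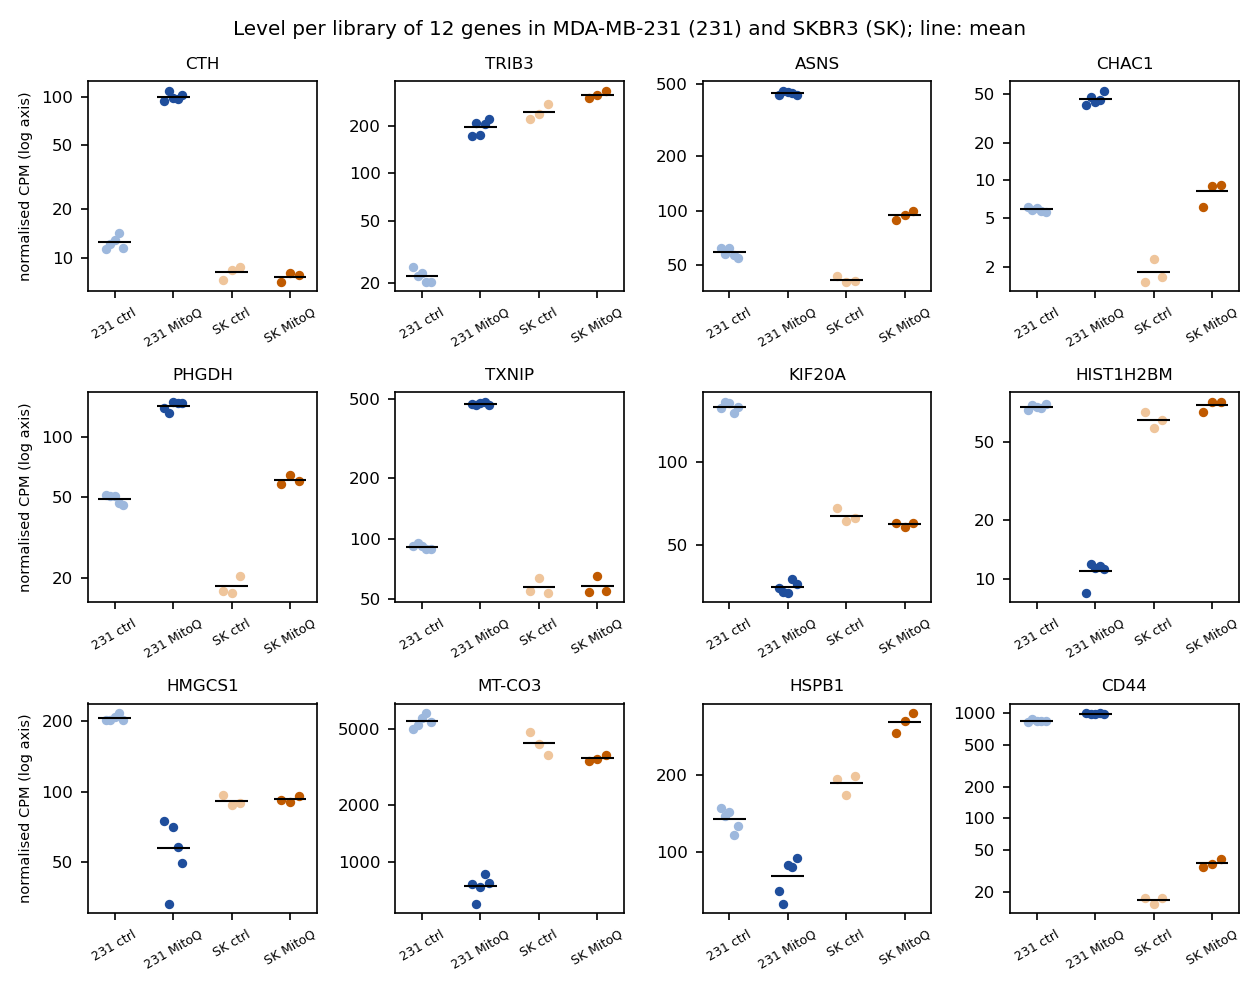
Normalised CPM per library on log axes for 12 genes, in MDA-MB-231 (231) and SKBR3 (SK) controls (light) and MitoQ libraries (dark); each point is 1 library and the bar is the group mean. CTH, TXNIP, KIF20A, HIST1H2BM, HMGCS1 and MT-CO3 separate by treatment in MDA-MB-231 and stay near their level in SKBR3, PHGDH rises in both, HSPB1 moves in opposite directions and CD44 moves further in SKBR3.

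A response mainly of SKBR3 was rarer. Among coding genes averaging 5 CPM or more in each line that rose in both, CD44, a hyaluronan receptor, had the largest positive interaction, going from 17.6, 15.4 and 17.7 to 34.9, 37.0 and 41.0 CPM in SKBR3 and from 813 to 866 CPM to 973 to 996 in MDA-MB-231. The fold was 2.21 against 1.17 (interaction 0.91 ± 0.08, adjusted p = 1.70e-09), although the gain in CPM was larger in MDA-MB-231. SLC12A4, NFATC2, NT5E, ATP11A and HIP1 had the same pattern, with interactions between 0.55 and 0.91. For SLC12A4 (log2 1.23 in SKBR3 and 0.32 in MDA-MB-231) the gain in CPM was 7.56 in SKBR3 and 12.6 in MDA-MB-231. For the ectonucleotidase NT5E (log2 0.89 in SKBR3 and 0.31 in MDA-MB-231) the gain was 12.7 in SKBR3 and 124 in MDA-MB-231. On the scale of CPM differences 157 of the 5387 genes (2.91%) had the opposite sign, since the lines start from unlike levels.

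JAG2, a Notch ligand, was called in SKBR3 alone. It went from 4.66, 4.73 and 6.01 to 11.6, 12.4 and 12.8 CPM in SKBR3 and lay at 14.3, 15, 12.9, 13.5 and 13.6 CPM in MDA-MB-231 controls and 14.2, 12.3, 16.9, 15 and 16.3 with MitoQ, which overlapped. The interaction was 1.12 ± 0.15 (adjusted p = 2.22e-06). NRARP, a Notch feedback gene (-0.08 and 0.92), and DTX3L (-0.03 and 0.70) rose in SKBR3 too, while the Notch target HES1 rose in MDA-MB-231 (0.70, with -0.05). Of 11 Notch genes 7 rose in MDA-MB-231 and 8 in SKBR3. They had 3 positive and 4 negative interactions, 63.6% called against 44% of all the genes. Of 10 NF-kappaB targets 8 rose in each line, where 29.6% of all the genes rose in MDA-MB-231 and 12.7% in SKBR3. The list had 4 positive interactions and 1 negative, or 2 and 1 with plain library totals. The share called, 50%, was near the 44% of all the genes. NFKBIA, the inhibitor of NF-kappaB, rose in SKBR3 (0.50, with 0.10 in MDA-MB-231), ICAM1 rose further in SKBR3 (0.38 and 1.19) and TNFAIP3 further in MDA-MB-231 (1.44 and 0.67). The urokinase gene PLAU rose in SKBR3 (0.04 and 1.05), as did JUN (0.14 and 0.77). In CPM the gain was not larger in SKBR3 for ICAM1, PLAU or JUN (SKBR3 minus MDA-MB-231: -2.72, -0.165 and -5.17). MDA-MB-231 MitoQ 2 was low for JUN (173, the other treated libraries 221 to 232, the controls 186 to 212). It was low for PLAU too (163, the others 208 to 224).

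Some genes of signalling and identity moved in MDA-MB-231 alone, or further there on the log2 scale. EGR1, an immediate early factor, rose there 4.66-fold (interaction -2.30 ± 0.22), the collagen COL6A3 8.97-fold (interaction -3.00 ± 0.28, with SKBR3 at 0.999 to 1.89 CPM throughout) and the small GTPase RHOB 7.55-fold. RHOB was at 106 CPM in MDA-MB-231 MitoQ 2 and 241 to 317 CPM in the other 4 treated libraries, against 488 to 607 CPM over all SKBR3 libraries. CYP1B1 (log2 3.22 and 0.38) and the netrin receptor UNC5B (3.54 and 0.93) rose in both lines, and LURAP1L in MDA-MB-231 (2.15, with -0.37). S100P, a calcium-binding protein, had the lowest interaction (-4.92) among coding genes that averaged 5 CPM or more in each line. Its MDA-MB-231 controls lay at 0.042 to 0.326 CPM, near the floor, so the size of its fold rests on a few counts. It met this minimum and the 1 CPM rule in MDA-MB-231 only through the treated libraries (7.12 to 11.4 CPM), so its rank rests on them. SLC16A1, UNC5B and LURAP1L also had MDA-MB-231 controls under 5 CPM. In SKBR3 S100P lay at 98.1, 80.8 and 91.3 CPM in controls and 127, 160 and 160 with MitoQ. The gain in CPM was larger there by 49.5. The epithelial genes ESRP1 (1.54, with -0.11) and SPDEF (1.23, with 0.00) rose in MDA-MB-231, from means of 3.33 and 6.02 CPM against 41.1 and 182 in SKBR3 controls. EGFR rose there (0.69, with 0.12) and NRG1, a ligand of other ERBB receptors, fell (-1.11, with 0.27), while ERBB2 passed in neither line (-0.02 and 0.10) and had an interaction of 0.12 ± 0.09. The RNA sensors IFIH1 (1.43, with 0.11) and DDX58 (-1.28, with 0.03) moved in opposite directions within MDA-MB-231.

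Genes that changed alike were few. Only 116 genes were called in 1 direction in both lines with at least 1.5-fold in each. Of these, 31 rises and 3 falls also had a 95% interval of the interaction inside 1.5-fold either way. That condition leaves out genes with a wide interval too. Besides PHGDH the rises included MYO7B (1.30 and 1.14), OSBP2 (0.95 and 0.81), ADAMTSL4 (0.73 and 0.85) and RGL1 (0.69 and 0.88). Of the falls, PEG10 went from 412 to 466 CPM to 186 to 209 in MDA-MB-231 and from 167, 150 and 162 to 95.2, 87.0 and 99.1 in SKBR3 (-1.15 and -0.77, with a called interaction of 0.38). EID1 fell by 0.63 and by 0.73 on the log2 scale. Both effects were called in 1907 genes, of which 1324 moved in 1 direction, and 878 of the 1907 had no called interaction, which does not show that they were equal.

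The median absolute log2 difference between SKBR3 and MDA-MB-231 was 0.755 among the controls and 0.757 among the MitoQ libraries, and 86.5% and 86.6% of the 12247 genes were called different.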

How the data were processed

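RNA of 16 libraries was sequenced. The values are estimated counts per gene deposited by the authors, made with Salmon on GRCh38 and handled with edgeR per the submitters' processing notes, which give no versions. Of 35106 rows 35003 matched GENCODE 29 by gene ID. The column names for SKBR3 contain the digits 231; ERBB2 and VIM levels there were those of SKBR3.

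The estimated counts were rounded, filtered with filterByExpr on the 4 groups, scaled by TMM and fitted over all 16 libraries with edgeR 4.0.16 (quasi-likelihood, robust) in R 4.3.3. Calls used a Benjamini-Hochberg adjusted p under 0.05 over 17094 rows, two-sided. SE came from the F statistic, and normalised CPM used the TMM factors. Fits were tested on simulated data. The same replicate number did not pair the libraries: the correlation of same-numbered deviations was -0.192 to 0.0832 in MDA-MB-231 and -0.017 to 0.170 in SKBR3.

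The members and gene lists were chosen with earlier results of these data known. Named genes were, among protein-coding genes that averaged 5 CPM or more in each line, the 10 highest and 10 lowest interactions with groups that do not overlap in at least 1 line, the 6 strongest opposite in each orientation, alike in each direction and larger in SKBR3. Then came 3 per list by smallest p and a fixed panel. The written rule set the same minimum for these, but it was not applied to them, so CAV1, COL13A1, COL5A2, COL6A3, CSF1R, GDF15, ICAM1, IFIH1, LOXL2 and NRG1, under 5 CPM in 1 line or both, fall outside the rule. AKR1B10, ANGPTL4, ATF5, CHAC1, CSF1, FASN, JUN, MT-ND1, MT-ND2, MT-ND3, MVK, NRARP, PMVK, PSAT1, PYCR1, SCD, SHMT2, SLC3A2, SLC7A1, SLC7A11, SLC7A5 and SQLE were chosen after their values were seen. Some genes that the rule names are not reported here. Alternatives were DESeq2 1.42.0, limma 3.58.1 voom, other scalings, filters, CPM minimums and thresholds, a replicate block and leaving out each library.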

Additional observations from a re-analysis of the deposited data

Results flagged for a closer look

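The 5387 genes with an interaction, and the 424 and 159 genes with opposite effects up in SKBR3 and up in MDA-MB-231, stand here because the effect of MitoQ differed between the lines by the interaction term itself.

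In groups of 5 libraries 1 library lay apart from the other 4 in 16 of 272 gene and group pairs (Dixon's criterion), and chance alone marks about 1 in 20. MDA-MB-231 MitoQ 2 was the library in 7 of these. It was low for FASN (337 normalised CPM, the others from 559 to 603), JUN (173), PLAU (163), UNC5B (12.1) and HMOX1 (5.34), and high for SLC7A11 (409, the others from 264 to 298) and SLC16A1 (18.5). Its part in the results was not tested beyond leaving it out. HIST1H2BM was low in MDA-MB-231 MitoQ 1 (8.47), CSF1R low in MitoQ 5 (1.17) and HIP1 high in MitoQ 3 (30.1). Among the MDA-MB-231 controls, IFIH1 (1.22) and MAP9 (14.0) were low and TMEM159 (22.4) high in control 1, MYO7B was low in control 2 (2.49), AURKA low in control 4 (197) and PSAT1 high in control 5 (126).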

How the results depend on the processing

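With plain library totals 252 genes were opposite with the rise in MDA-MB-231, and with no filter on low counts 100. With limma voom 4196 genes were called in SKBR3, 745 of the interaction calls in SKBR3 alone, 334 were opposite and up in MDA-MB-231 and 645 up in SKBR3, 729 were larger in MDA-MB-231 and 109 in SKBR3, and r was 0.261. At a mean of 5 CPM in each line 18 genes changed alike, the median effects were 0.226 and 0.126 and r was 0.263. At 0.5 CPM the MDA-MB-231 median was 0.247. At an adjusted p under 0.01 1307 genes were called in SKBR3 and 244 in SKBR3 alone, 51 and 183 were opposite, and 164 and 19 were larger in MDA-MB-231 and SKBR3. Tested against a 1.2-fold change, 2597 interactions were called (1481 positive, 1116 negative, 294 in the lists), 3637 effects in MDA-MB-231 and 314 in SKBR3, 2002 and 95 in 1 line alone, 1 and 27 opposite, and 35 and 3 larger in MDA-MB-231 and SKBR3. With MDA-MB-231 replicates 1 to 3 alone 19 genes changed alike, the median was 0.257 and r was 0.169. DESeq2 called 5447 interactions.

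Leaving out 1 library at a time gave 4733 to 5741 interactions, 2655 to 3374 positive and 1991 to 2367 negative, 7402 to 7905 effects in MDA-MB-231 and 1467 to 3262 in SKBR3. It gave 73 to 210 opposite genes up in MDA-MB-231 and 238 to 528 up in SKBR3, 203 to 561 larger in MDA-MB-231 and 42 to 84 in SKBR3, 3402 to 3819 in MDA-MB-231 alone and 269 to 541 in SKBR3 alone. It also gave 27 to 42 changed alike, medians of 0.239 to 0.243 and 0.131 to 0.152, r of 0.192 to 0.241 and 417 to 472 listed genes. The replicate block, with numbers that did not pair the libraries, gave 5017 interactions and 2120 effects in SKBR3. Only 1 of 8 numbers was its library's best match.

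Of the named genes' values 20 changed sign, all for interactions that did not pass. HMOX1 was -0.0016 with plain totals, -0.0185 with voom and -0.0040 to 0.201 without 1 library, PMVK -0.0294 with plain totals and ADAMTSL4 -0.0051 to 0.309 without 1 library. SLC7A1 was 0.0411 with MDA-MB-231 replicates 1 to 3, and -0.0744 to 0.0504 without 1 library. MT-ND2 was 0.0205 with the replicate block, 0.0291 with replicates 1 to 3, and -0.116 to 0.106 without 1 library. Where the value moved, the cause was not tested. Depth limits genes near the floor of 0.102 to 0.204 CPM.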

Other observations

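Other groups had interactions in both directions. Of 20 genes of the TGF-beta and BMP response 9 had a negative and 5 a positive interaction, with median effects of 0.48 in MDA-MB-231 and 0.33 in SKBR3. With plain library totals the counts were 9 and 3. Of 16 immediate early and AP-1 genes 8 were negative and 3 positive, and 12 rose in MDA-MB-231 and 7 in SKBR3. Of 23 genes of lysosomes and autophagy 9 were negative and 5 positive. In that order the shares called in these groups were 70%, 68.8% and 60.9%, against 44% of all 12247 genes. Of 18 genes of luminal and epithelial identity 8 were negative and 1 positive, with 10 rises in MDA-MB-231 and 2 in SKBR3. The share called was 50%, against 44% of all 12247 genes. Of 17 collagen and matrix genes 4 had an interaction in each direction, and of 11 integrins 2 in each. With plain library totals 1 was positive and 4 negative in each of these groups. The shares called, 47.1% of the collagen and matrix genes and 36.4% of the integrins, were near the 44% of all 12247 genes. Of 19 interferon-stimulated genes and RNA sensors 13 rose in MDA-MB-231 and 6 in SKBR3, with 5 positive and 3 negative interactions, or 1 and 4 with plain library totals, and the share called, 42.1%, was near that of all the genes too.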
